A study of Macaca mulatta with 24 samples.

Results

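Collagens and laminins are the main proteins of the extracellular matrix, and their transcripts were read here in rhesus monkey endometrium, the lining of the uterus, in the days before an embryo implants. The genes were chosen by the name that the array files give each probe: every collagen chain, every laminin chain, and a fixed set of matrix glycoproteins and proteoglycans. The choice gave 32 genes of 18976 gene names. Of the 32, 19 are collagen chains, 6 are named as laminin chains, and the others are NID1, FBN1, BGN, DCN, LUM, POSTN and COL4A3BP. COL4A3BP encodes a ceramide transfer protein and no matrix component, and it matched only by its name.

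RNA from whole endometrium was hybridised to 24 Agilent arrays with 1 colour. Mated cycles of proven conception gave 4 arrays each at days 2, 4 and 6 after ovulation, and cycles without mating but with normal ovulation gave 4 arrays at each of the same days. All animals were female Macaca mulatta and, per the design text, of proven fertility. The age and the number of animals are not given in the sources used here, and the source names of the conception arrays count the days from fertilization. Whether the 4 samples of a group are from different females is not stated in the labels, and the p-values below therefore describe sample-to-sample spread that may be technical. In whole tissue, fewer cells of a type and less RNA per cell cannot be told apart.

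Matrix genes divide by the structure that their products build. Fibrillar collagens (types I, II, III, V, XI and XXIV) form the fibres of connective tissue, and type I pairs its chain COL1A2 with COL1A1. Type IV collagen chains, laminin trimers of 1 alpha, 1 beta and 1 gamma chain, and nidogen assemble the basement membrane, the sheet under epithelium and around vessels and smooth muscle cells. In the primate endometrium, stromal cells that decidualise later surround themselves with laminin and type IV collagen. The fibrillar list here held 6 genes and the basement membrane list held 12.

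The level of a gene is the log2 signal of its probe relative to the 75th percentile of its array, so 0 is the signal at that percentile and a difference of 1 is a doubling. Levels were compared only within a probe. Of the 32 genes, 27 cleared background in some group (well above it on 3 or 4 of the group's arrays) and were tested. COL2A1, COL9A1, COL21A1, COL25A1 and COL4A3BP did not reach that mark. COL2A1, the collagen of cartilage, was well above background on 0 of 24 arrays, and COL9A1, a fibril-associated collagen, on 9.

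Arrays differed in strength. On 21 arrays between 53.3% and 71.5% of all probes were well above background, and between 21 and 27 of the 27 genes. Non-mated day 2 replicate 3 had 4.33% of its probes and 5 of the 27 genes above background. Non-mated day 4 replicate 1 had 37.9% and 18 genes, and non-mated day 4 replicate 2 had 21.8% and 11 genes. These 3 are called weak arrays below, and they bear on differences that use non-mated day 2 or 4. For most such differences named below the value without them is also given, and the plots of differences show both for 26 of the 27 genes. All comparisons share 1 fit, so the weak arrays also enter the SE, p and intervals of comparisons that use none of them. The median residual SD over all features was 0.75 with all arrays, and 0.52 without the weak arrays. On the weakest array 12 of the 27 genes shared the floor value of -0.26, and genes dim elsewhere read high there. Conception day 6 replicate 3 also stood apart, with 616 spots flagged as outliers against at most 50 on the other 23 arrays. All 8 stroma markers passed the filter, among them VIM, PDGFRA and HOXA10, as did 6 epithelial markers, including KRT18, KRT19 and PAX8.

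No matrix gene passed an adjusted p of 0.05 (limma, Benjamini-Hochberg over 12053 features) in any of 9 comparisons. The comparisons set conception against non-mated on each day and over the mean of days, followed the days within each cycle type, and tested the interaction. The smallest adjusted p among the 27 genes was 0.679, in the mean of days. The share of all features called was 0% at day 2, 0% at day 4, 0.0083% at day 6 and 0.0083% in the mean of days. It was 0% for day 4 minus day 2 and day 6 minus day 4 in conception cycles, 0.0166% for day 6 minus day 2 in conception cycles, and 0% for the non-mated days and the interaction. At an unadjusted p under 0.05, limma gave 1 gene at day 2, 1 at day 4, 0 at day 6 and 2 in the mean of days. For all features those shares were 2.51%, 5.88%, 2.49% and 6.76%. Within conception cycles it gave 0 genes for day 4 minus day 2 (2.64% of all features), 0 for day 6 minus day 4 (0.631%) and 1 for day 6 minus day 2 (4.22%). The non-mated cycles gave 1 gene (3.27%) and the interaction 0 (2.1%). Without the weak arrays conception day 6 minus day 2 called 1.72% of all features and 0 of the 27 genes, the smallest adjusted p being that of LAMB1, 0.103 (limma). A p that misses the threshold does not show equal levels, and the intervals below give the sizes that these arrays leave possible.

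LAMB1, the beta 1 chain of most laminins, was the steadiest of the basement membrane genes, and its levels were higher on day 6 than on day 2 in both cycle types. On day 2 LAMB1 had levels of 3.02, 2.35, 2.96 and 2.77 on the conception arrays, against 2.64, 2.84, 1.34 and 2.60 on the non-mated arrays. On day 4 the levels were 3.24, 3.17, 3.23 and 3.68 in conception cycles, against 2.87, 2.54, 2.66 and 3.17 in non-mated cycles. On day 6 they were 3.36, 3.28, 3.87 and 3.50 in conception cycles, against 2.93, 3.26, 3.49 and 3.21 in non-mated cycles. Every day 6 array lay above every day 2 array of its own cycle type, while conception and non-mated arrays overlapped on days 2 and 6. On day 4 the groups did not overlap, but the lowest conception and the highest non-mated array both rounded to 3.17.

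For conception day 6 minus day 2 the LAMB1 difference was 0.72 ± 0.32 (SE, n = 4 each; limma adjusted p = 0.997, unadjusted p = 0.0319). For non-mated day 6 minus day 2 it was 0.87 ± 0.32 (SE, n = 4 each; limma adjusted p = 0.76, unadjusted p = 0.0117). The non-mated value was 0.53 without the weak arrays, of which non-mated day 2 replicate 3 was the lowest of all 24. Within scan day 1 the non-mated difference was 1.41 and within scan day 2 it was 0.33, and the conception difference was 0.82 and 0.63. The residual SD of LAMB1 was 0.37, and 3.24% of all features had a lower one. Conception minus non-mated was 0.42 at day 2, 0.52 at day 4 and 0.28 at day 6, with 0.08 and 0.42 at days 2 and 4 when the weak arrays were left out. The mean of days was 0.41 (95% interval 0.03 to 0.79; limma unadjusted p = 0.0364, adjusted p = 0.679), and 0.26 without the weak arrays. With the slide as a block the mean of days was 0.20 ± 0.30 (SE). LAMB4, the neighbouring laminin beta gene, was dim, and conception minus non-mated for it was -1.24 at day 2, -0.85 at day 4 and 0.67 at day 6. The LAMB4 values were -0.30, 0.82 and 0.67 once the weak arrays were left out.

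**Figure D1:**
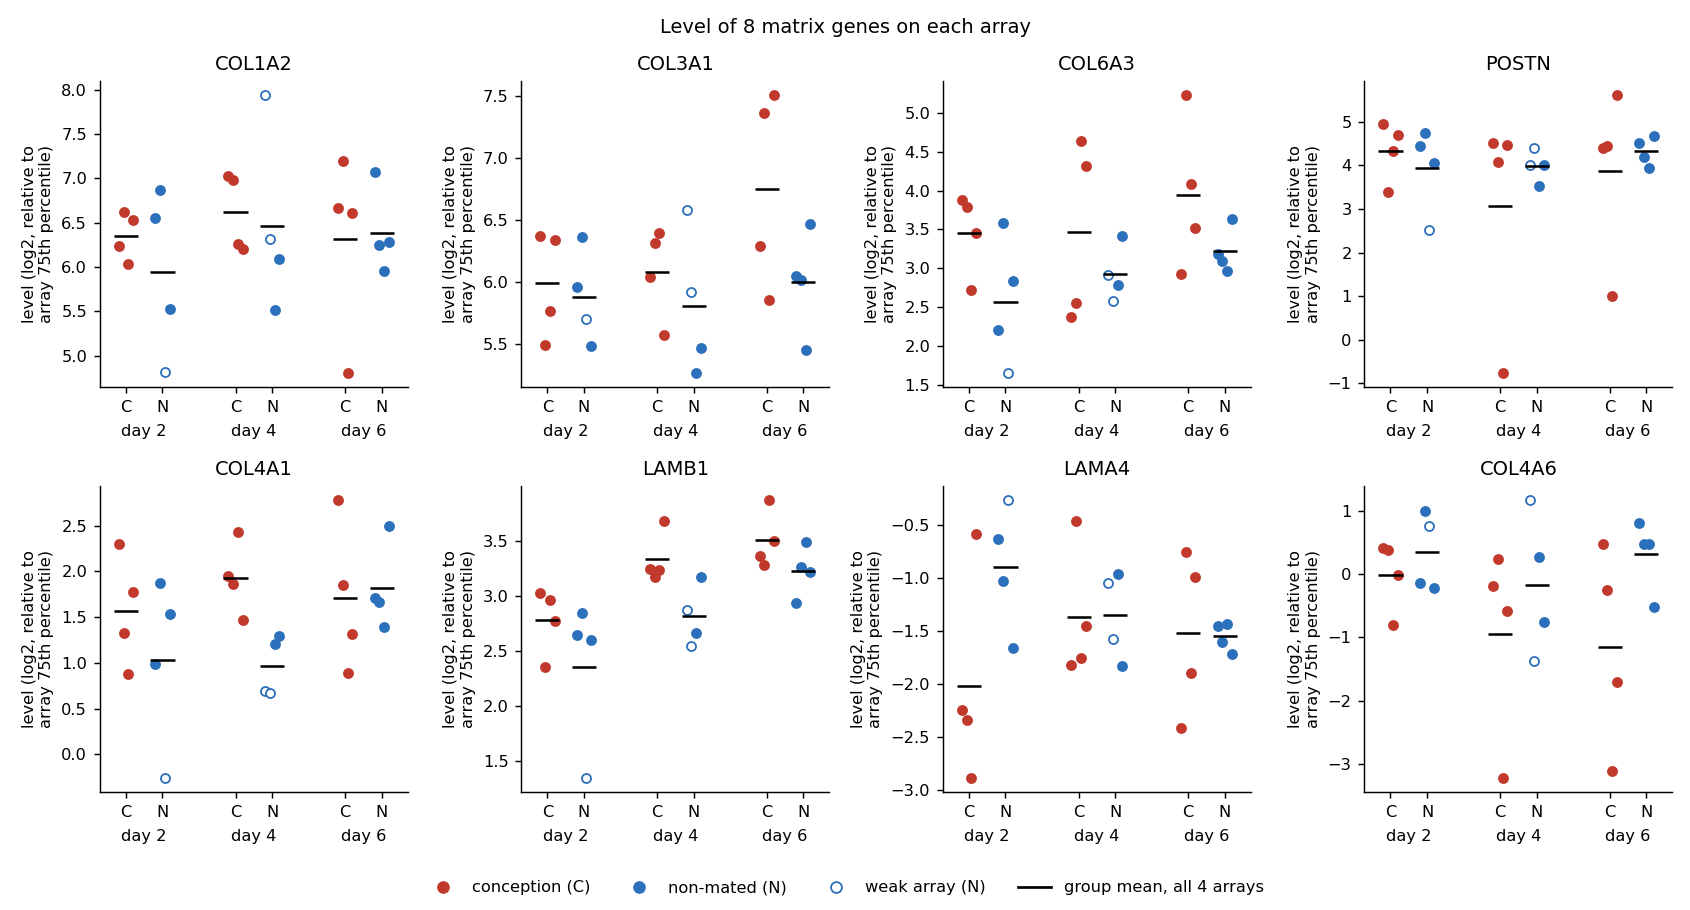
Level of 8 matrix genes on every array (vertical axis, log2 signal relative to the array's 75th percentile), by day, with conception (C, red) left of non-mated (N, blue). Points are arrays, open points are the 3 weak arrays, and bars are means of 4 arrays. LAMB1 lay higher on day 6 than on day 2 in both cycle types, and POSTN was far below its group on conception day 4 replicate 3 and conception day 6 replicate 3.

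COL4A1, the alpha 1 chain of the type IV network present in nearly all basement membranes, was higher in conception than in non-mated cycles on day 4 without overlap. Its day 4 levels were 1.95, 1.86, 2.43 and 1.47 on the conception arrays, against 0.69, 0.67, 1.21 and 1.29 on the non-mated arrays. The difference was 0.96 ± 0.46 (SE, n = 4 each; limma adjusted p = 0.704, unadjusted p = 0.0469), a 1.95-fold higher level in conception cycles. Both lowest values came from weak arrays, and the difference was 0.67 ± 0.47 without them. It was 0.70 within scan day 1, where conception and non-mated arrays shared no slide, and 1.22 within scan day 2. On day 2 the conception minus non-mated difference of COL4A1 was 0.54, or 0.11 without the weak arrays, and on day 6 it was -0.11, with overlapping groups on both days.

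COL4A2 stands beside COL4A1 in the genome, and its product joins 2 COL4A1 chains in the main type IV trimer. The files do not give COL4A2 as the gene name of a probe, so it stands outside the 32. Its day 4 levels were 0.98, 0.96, 1.61 and 1.89 in conception cycles, against -0.18, 1.83, 0.00 and -0.22 in non-mated cycles, where the array at 1.83 is weak. The difference was 1.00 ± 0.59 (SE, n = 4 each; limma adjusted p = 0.704), and 1.47 ± 0.65 without the weak arrays. Of the 27 genes, 2 did not overlap between conception and non-mated arrays on day 4, COL4A1 and LAMB1, where 2.37% of all features did not. On day 2 and on day 6 it was 0 of 27, beside 1.44% and 4.34% of all features. Without the weak arrays 4 of 27 did not overlap on day 4, COL1A2, COL3A1, COL4A1 and LAMB1, all higher in conception cycles, beside 14.1% of all features, with 2 non-mated arrays left. On day 2 it was 0 of 27 without them, beside 2.84%.

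On the same day the summed signal of 5 macrophage markers (of 7 listed) ran between 3.02 and 4.72 times the 75th percentile in conception cycles, against 1.75 to 2.99 in non-mated cycles. The sum of 5 endothelial markers (of 8 listed) ran between 9.2 and 16.9 in conception cycles, against 5.37 to 12.1 in non-mated cycles. Above 0 for conception minus non-mated lay 4 of 5 macrophage and 3 of 5 endothelial markers, beside 49.1% of all features. CSF1R was at -0.13, CDH5 at -1.10 and TIE1 at -0.59, or 0.57, 0.50 and 0.85 without the weak arrays. Stroma sums ran from 26.5 to 48.2, against 22.1 to 49.8, or 26.6 to 28.9 without the weak arrays. Epithelial sums ran from 38.8 to 63.7, against 24.4 to 72.7, or 57.3 to 72.7 without them. The part of these cells in the type IV collagen and LAMB1 levels was not tested.

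The probes of this pair lie 351 kb apart on chromosome 17 of the rheMac2 build, pointing away from each other. Their last 30 bases are shown because they tell apart the transcripts of neighbouring genes, and no AATAAA, the usual signal for cutting and tailing a transcript, lies in them. The COL4A1 probe spans chr17:90237616-90237675 on the minus strand, and the COL4A2 probe chr17:90588366-90588425 on the plus strand.
COL4A1: tctgctatgtgtggtactatgcagctgctt
COL4A2: gtaaaaaacactgataatcacatagcggtc

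The other type IV chains build networks of more limited distribution. COL4A3 and COL4A4 share a trimer with COL4A5, which can also join COL4A6. COL4A3, COL4A4 and COL4A6 lay below 0 for conception minus non-mated on all 3 days. For COL4A6 the differences were -0.36, -0.77 and -1.46 at days 2, 4 and 6. For COL4A4 they were -0.73, -0.33 and -1.36, and for COL4A3 -1.46, -1.14 and -0.44. None passed the test, and COL4A3 was well above background on 9 of 24 arrays. Without the weak arrays the COL4A3 values were -0.03, -0.32 and -0.44, COL4A4 was at -0.39 and -1.26 on days 2 and 4, and COL4A6 at -0.22 and -0.70. Over the mean of days COL4A3 had -1.01 and COL4A6 -0.86, or -0.27 and -0.79 without the weak arrays.

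COL4A6 had day 6 levels of 0.48, -0.25, -3.11 and -1.70 in conception cycles, against 0.81, 0.48, 0.48 and -0.51 in non-mated cycles. Its difference of -1.46 ± 0.74 (SE, n = 4 each; limma adjusted p = 1.0) was -0.80 without conception day 6 replicate 3. Within scan day 1 it was -2.88 and within scan day 2 it was -0.03, and the 2 conception arrays of scan day 1 were the low ones. COL4A4 had day 6 levels of -3.32, -1.82, 0.16 and -1.83 in conception cycles, against -1.56, -0.41, 0.89 and -0.29 in non-mated cycles. Its lowest array was therefore another one than that of COL4A6. The COL4A4 difference of -1.36 at day 6 was -1.98 without conception day 6 replicate 3.

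COL4A5 had a small spread in conception cycles, and its day 2 arrays there lay below all those of days 4 and 6, which overlapped each other. Its conception levels were 2.76, 2.73, 2.90 and 2.82 on day 2, 3.26, 3.48, 3.04 and 3.33 on day 4, and 3.41, 3.29, 3.09 and 3.46 on day 6. The conception difference of day 6 minus day 2 was 0.51 ± 0.51 (SE, n = 4 each; limma adjusted p = 0.997), and its SE was 0.22 without the weak arrays, with an adjusted p of 0.283. In non-mated cycles COL4A5 had 3.15, 3.59, 0.46 and 2.77 on day 2, and 3.83, 3.49, 3.48 and 2.79 on day 6. Without overlap between the days stood 2 of the 27 genes for conception day 4 minus day 2, COL4A5 and LAMB1, and the same 2 for day 6 minus day 2. All features gave 4.17% and 7.7%. For conception day 6 minus day 4 it was 0 of 27, beside 2.22%. For non-mated day 6 minus day 2 it was 1 gene, LAMB1, beside 3.0% of all features, and LAMB1 alone again without the weak arrays, beside 5.07%.

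LAMA4, the alpha 4 chain found in vessels and stroma, gave the 1 day 2 difference with an unadjusted p under 0.05. Its day 2 levels were -2.25, -2.34, -2.89 and -0.58 in conception cycles, against -0.63, -1.03, -0.26 and -1.66 in non-mated cycles. The conception array at -0.58 lay among the non-mated ones. The difference was -1.12 ± 0.47 (SE, n = 4 each; limma adjusted p = 0.791, unadjusted p = 0.0257), and -0.91 without the weak arrays. After quantile normalization it was 0.11 ± 0.90 (SE), where the median of all features moved from -0.15 to 0.50. On days 4 and 6 LAMA4 differed by -0.02 and 0.03. LAMA2, the alpha 2 chain of muscle and stroma, had conception minus non-mated differences of -0.58 at day 2, -0.38 at day 4 and -0.32 at day 6, each smaller than its SE of 0.63. At days 2 and 4 LAMA2 had -0.69 and -0.18 without the weak arrays.

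Gamma chains need care with names. The probe that the files name LAMC1 is described in the same files as laminin beta 2, and it lies near COL7A1 on chromosome 2, where the RefSeq table places LAMB2 beside COL7A1. A probe described as laminin B2 chain, the older name of laminin gamma 1, lies on chromosome 1, where the RefSeq table places LAMC1. The sequences are shown because the gene behind each value depends on them, with AATAAA in capitals. The first spans chr2:87330920-87330979 on the plus strand and the second chr1:187516492-187516551 on the minus strand, both on rheMac2.
LAMC1 in the files: cagggcccccAATAAAccagtgtgaacccc
laminin B2 chain: ctacagccttgctctccagggtggttaata

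AATAAA was in the full 60-base probes of 3 of the 32 genes (9.38%), and in 12.8% of all 20217 probes on the array. Its reverse complement was in 0 of 32 and in 4.67% of all probes. The probe named LAMC1 had conception minus non-mated differences of 0.56, 0.41 and -0.22 at days 2, 4 and 6. The laminin B2 chain probe had 0.68, 0.58 and 0.25 on those days. With the weak arrays left out, the probe named LAMC1 had 0.27 and -0.23 at days 2 and 4, and the laminin B2 chain probe -0.05 and 0.31. Neither passed the test, with adjusted p of 0.791 and 0.791 at day 2 (limma, n = 4 each). NID1, which links laminin to type IV collagen, had -0.75, 0.23 and 0.09, and -0.04, 0.85 and 0.09 without the weak arrays.

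COL3A1, the chain of type III collagen and a main fibre of reticular stroma, was the fibrillar gene with the highest difference on days 4 and 6 with all arrays. On day 2 its levels were 6.37, 5.49, 5.76 and 6.34 in conception cycles, against 5.96, 6.36, 5.70 and 5.48 in non-mated cycles. On day 4 they were 6.04, 6.31, 6.39 and 5.57 in conception cycles, against 6.58, 5.92, 5.26 and 5.46 in non-mated cycles. On day 6 they were 6.29, 7.36, 5.85 and 7.51 in conception cycles, against 6.05, 6.01, 5.45 and 6.47 in non-mated cycles. On day 6 conception replicates 2 and 4 stood above all other arrays of the gene, and the other conception arrays lay within the non-mated range.

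The COL3A1 difference at day 6 was 0.76 ± 0.40 (SE, n = 4 each; limma adjusted p = 1.0), a 1.69-fold higher level in conception cycles with a 95% interval of -0.06 to 1.58 on the log2 scale. It was 0.95 within scan day 1 and 0.57 within scan day 2, and 1.06 without conception day 6 replicate 3. Over the mean of days COL3A1 differed by 0.38 ± 0.23 (SE), and by 0.51 without the weak arrays. With the slide as a block that value was 0.13 ± 0.38 (SE). The COL5A2 probe lies next to COL3A1 on chromosome 12 and is also named outside the gene name field. Its conception minus non-mated differences were 0.42, 0.10 and -0.37 at days 2, 4 and 6. Without the weak arrays they were -0.02 and 0.03 at days 2 and 4.

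COL1A2, the alpha 2 chain of type I collagen, differed little on average between conception and non-mated cycles with all arrays. Its levels on day 6 were 6.66, 7.20, 4.80 and 6.61 in conception cycles, against 7.07, 6.25, 5.95 and 6.28 in non-mated cycles. Conception replicate 3 lay far below the rest. The conception minus non-mated difference was 0.41 at day 2, 0.16 at day 4 and -0.07 at day 6, each with an SE of 0.54. At day 6 the 95% interval ran from -1.18 to 1.04, and without conception day 6 replicate 3 the difference was 0.43. The difference was 0.04 on day 2 and 0.82 ± 0.52 (SE) on day 4 without the weak arrays.

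The probes of the minor fibrillar chains gave less signal, which does not compare transcript amounts between genes. COL24A1 had day 6 levels of 0.40, -1.16, -4.13 and -2.74 in conception cycles, against 0.29, -0.73, -0.46 and -1.49 in non-mated cycles. The difference of -1.31 ± 0.69 (SE, n = 4 each; limma adjusted p = 1.0) was -0.56 without conception day 6 replicate 3, and within scan days 1 and 2 it was -2.84 and 0.23. COL11A2 was well above background on 0 conception day 4 arrays and on 2 non-mated day 4 arrays. Its measured means that day were -4.35 in conception cycles and -2.89 in non-mated cycles, or -3.45 in non-mated cycles without the weak arrays. The log2 difference of -1.46 (limma adjusted p = 0.704) was -0.91 without them, and no fold is given because neither group was measured above background on all its arrays. COL5A3, a chain of type V collagen, had -0.94, -1.08 and -0.38 for conception minus non-mated, and 0.15, 0.18 and -0.38 without the weak arrays. Over the mean of days COL11A2 had -0.92 and COL5A3 -0.80, or -0.39 and -0.02 without the weak arrays.

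**Figure D2:**
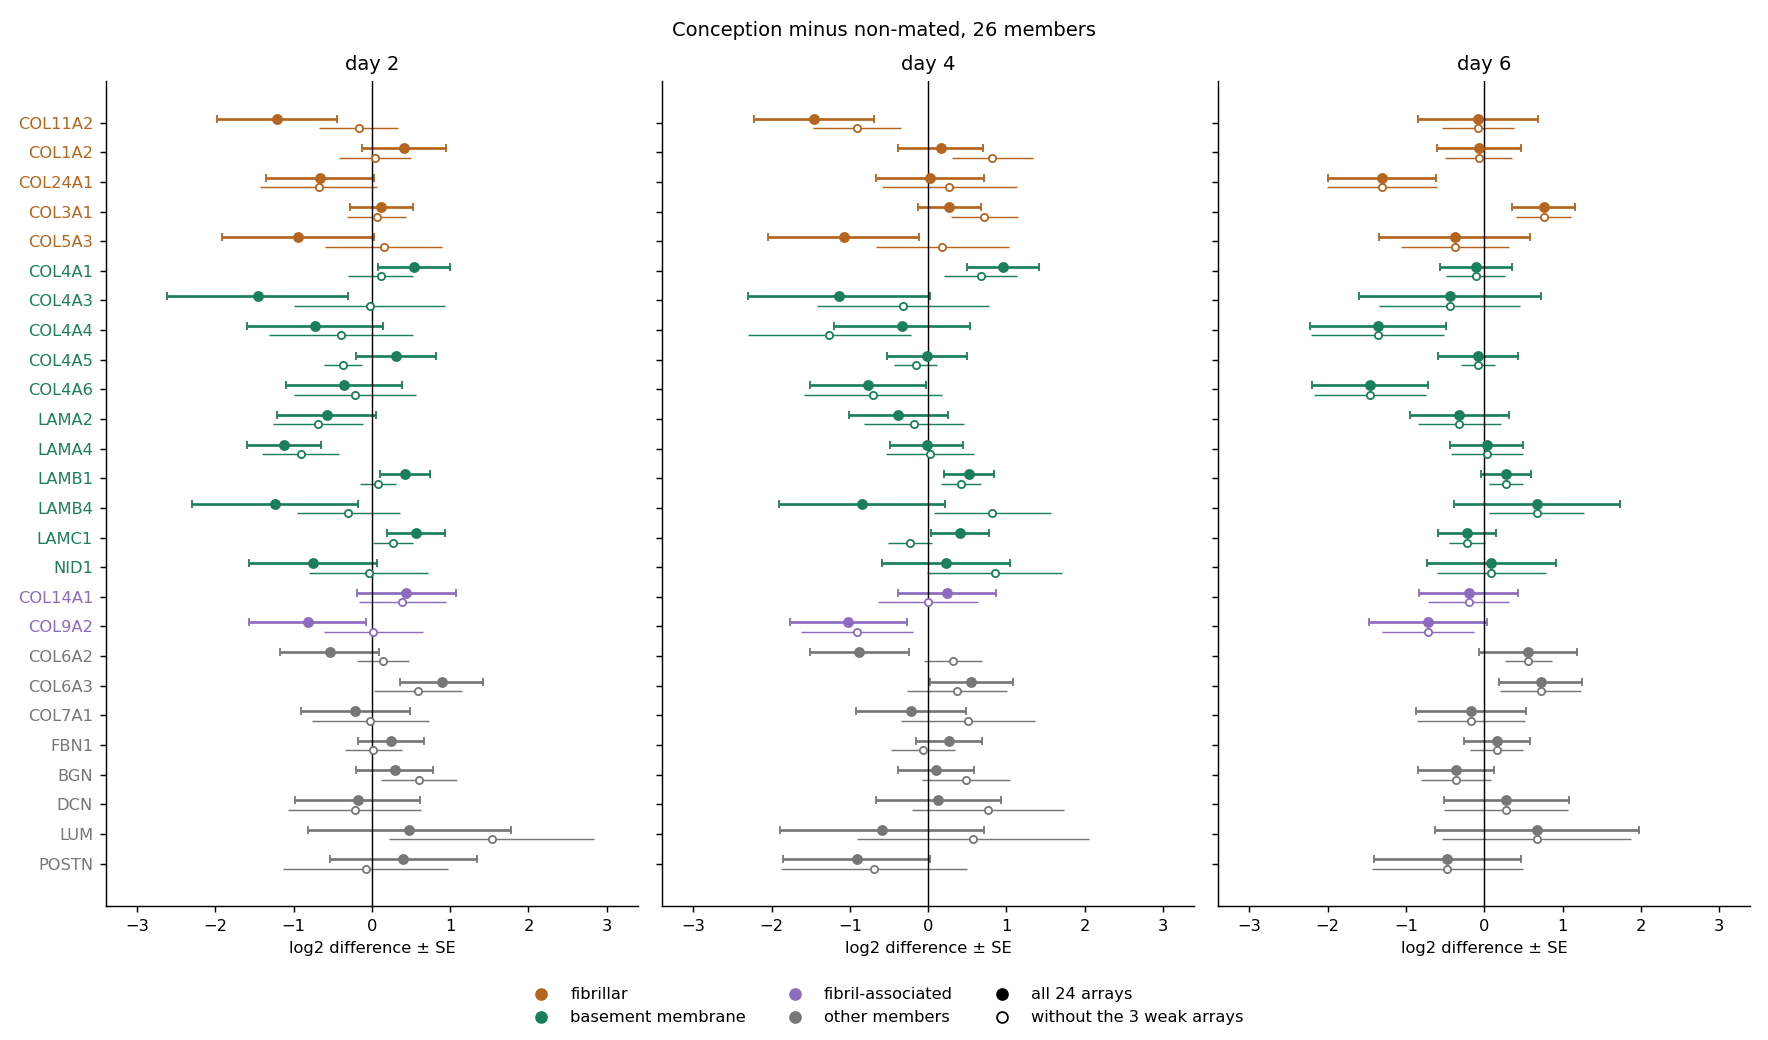
Conception minus non-mated log2 difference of 26 of the 27 genes on days 2, 4 and 6 (horizontal axis), with genes down the page and bars of ± 1 SE from limma. Filled points use all 24 arrays and open points leave out the 3 weak arrays. The dim genes COL11A2, COL5A3, COL4A3 and LAMB4 lay below 0 on days 2 and 4 with all arrays, and the lowest of their open points on those days was COL11A2 on day 4 at -0.91.

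Fibrillar and basement membrane genes were set against each other over each comparison. At day 2 the median conception minus non-mated difference was -0.66 over the 5 fibrillar genes tested and -0.47 over the 12 basement membrane genes, beside -0.15 over all 12053 features. At day 4 the medians were 0.02 and -0.01, beside -0.02 over all features. At day 6 they were -0.08 and -0.16, beside 0 to 2 decimals over all features. Over the mean of days they were -0.65 and -0.26, beside -0.06 over all features. Without the weak arrays the fibrillar medians were 0.04, 0.27 and -0.08 at days 2, 4 and 6, and the basement membrane medians were -0.13, -0.07 and -0.16. In the mean of days the fibrillar median was then -0.02 and the basement membrane median -0.13, so the order of the lists turned.

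A mean deviation per array gives the lists by sample, and at day 4 it differed from the medians. Each gene was centred on its own mean over 24 arrays and then averaged within its list. The fibrillar mean deviation was -0.12 ± 0.40 on conception day 2, against 0.34 ± 0.76 on non-mated day 2 (SD, n = 4 each). It was -0.15 ± 0.34 on conception day 4, against 0.27 ± 0.74 on non-mated day 4, and -0.28 ± 0.85 on conception day 6, against -0.06 ± 0.21 on non-mated day 6. The non-mated mean was 0.01 on day 2 and -0.37 on day 4 without the weak arrays, and the day 4 direction turned. The 3 weak arrays, at 1.35, 0.87 and 0.94, had the 3 highest values of all, and conception day 6 replicate 3, at -1.35, had the lowest. The basement membrane mean deviation spanned less, from -0.40 to 0.33 outside the weakest array at 0.70. It was -0.12 ± 0.14 on conception day 6, against 0.16 ± 0.18 on non-mated day 6. Fibrillar minus basement membrane overlapped between conception and non-mated arrays on every day.

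**Figure D3:**
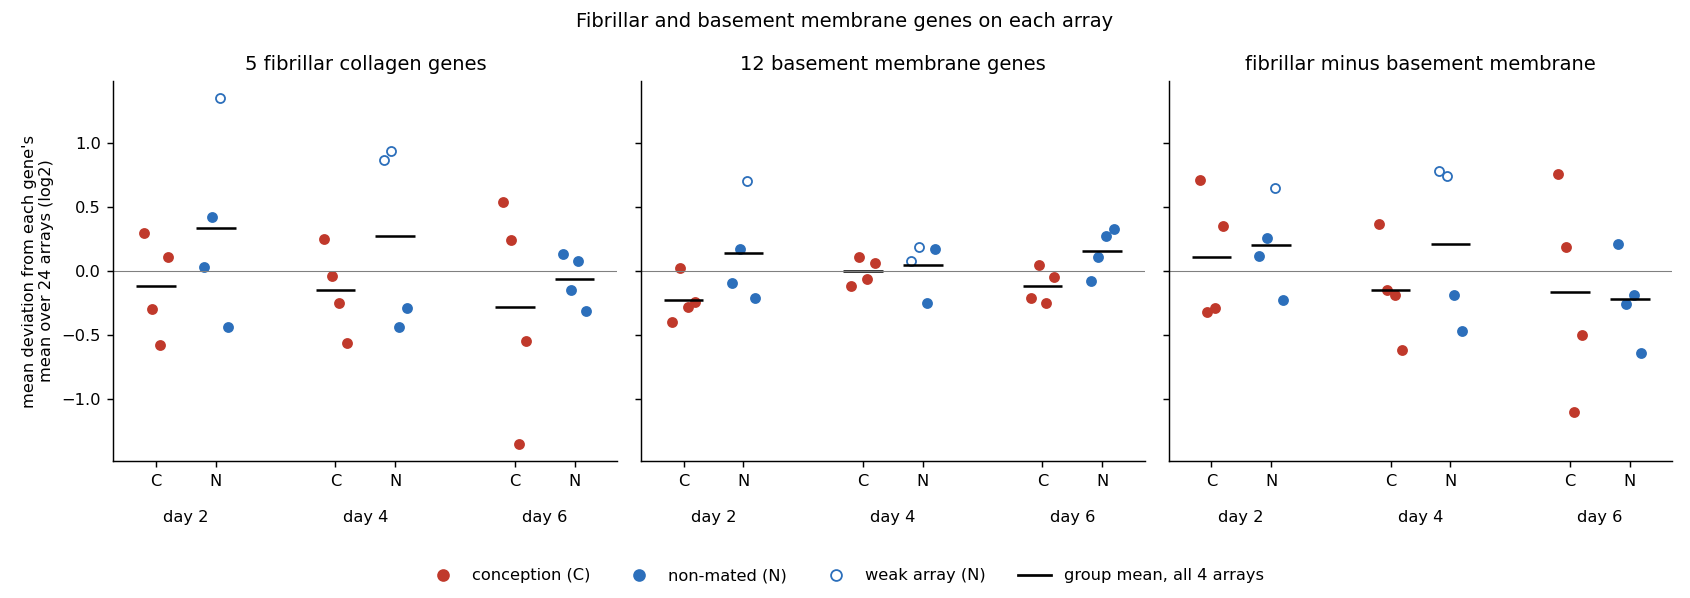
Mean deviation of 5 fibrillar and 12 basement membrane genes on each array, and their difference (vertical axis, log2 units from each gene's own mean), by day, with conception (C, red) left of non-mated (N, blue). Open points are the weak arrays, which had the 3 highest fibrillar values, and the lowest point is conception day 6 replicate 3 at -1.35.

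Type VI collagen forms beaded filaments between fibres and basement membranes. COL6A3, its long alpha 3 chain, lay higher in conception cycles on average on all 3 days, by 0.89, 0.55 and 0.72, and by 0.59 and 0.37 on days 2 and 4 without the weak arrays. Its day 2 levels were 3.88, 3.79, 2.72 and 3.45 in conception cycles, against 2.20, 3.58, 1.65 and 2.84 in non-mated cycles. Its day 4 levels were 2.37, 2.55, 4.64 and 4.32 in conception cycles, against 2.91, 2.58, 2.78 and 3.42 in non-mated cycles. Its day 6 levels were 2.93, 5.23, 4.08 and 3.52 in conception cycles, against 4 values between 2.96 and 3.63 in non-mated cycles. The groups overlapped on each day, and the conception arrays were the more spread on days 4 and 6.

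Over the mean of days COL6A3 differed by 0.72 ± 0.31 (SE, n = 12 each; limma adjusted p = 0.679, unadjusted p = 0.0287), a 1.65-fold higher level in conception cycles. It was 0.56 ± 0.33 without the weak arrays and 0.13 ± 0.44 with the slide as a block. Within scan days 1 and 2 the day 4 difference was 1.38 and -0.28. COL6A2, the alpha 2 chain, was read by 2 probes that disagreed in direction or size with all arrays. The brighter had conception minus non-mated differences of -0.54, -0.88 and 0.56 at days 2, 4 and 6, and the dimmer had 0.53, 0.01 and -0.19. On the brighter COL6A2 probe the weak arrays at days 2 and 4 read 6.99, 5.61 and 7.43, and non-mated arrays that were not weak read between 3.76 and 4.93. The brighter probe had 0.14 and 0.32 at days 2 and 4 once the weak arrays were left out, and over the 21 stronger arrays the levels of the 2 probes correlated at r = 0.71, as a description.

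POSTN, encoding periostin, a stromal glycoprotein that binds collagen, had 2 arrays far from the rest. Its levels on conception day 4 were 4.52, 4.08, -0.77 and 4.48, against 4.00, 4.41, 3.53 and 4.00 on non-mated day 4. On conception day 6 they were 4.40, 4.44, 1.00 and 5.62, against 4.52, 4.19, 3.95 and 4.68 on non-mated day 6. Replicate 3 was the low array on both days, and those 2 arrays were also the lowest of all 24 for COL4A6, at -3.23 and -3.11. Both were on the same slide, with conception day 2 replicate 3, where POSTN was at 4.34. The part of the slide was not tested. Conception day 6 replicate 3 was the lowest of the 21 stronger arrays for 7 of the 27 genes, COL1A2, COL5A3, COL7A1, COL9A2, COL24A1, LAMA2 and NID1, and the highest for 1, LAMB1. The POSTN difference at day 6 was -0.47, and 0.48 without that array.

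**Figure D4:**
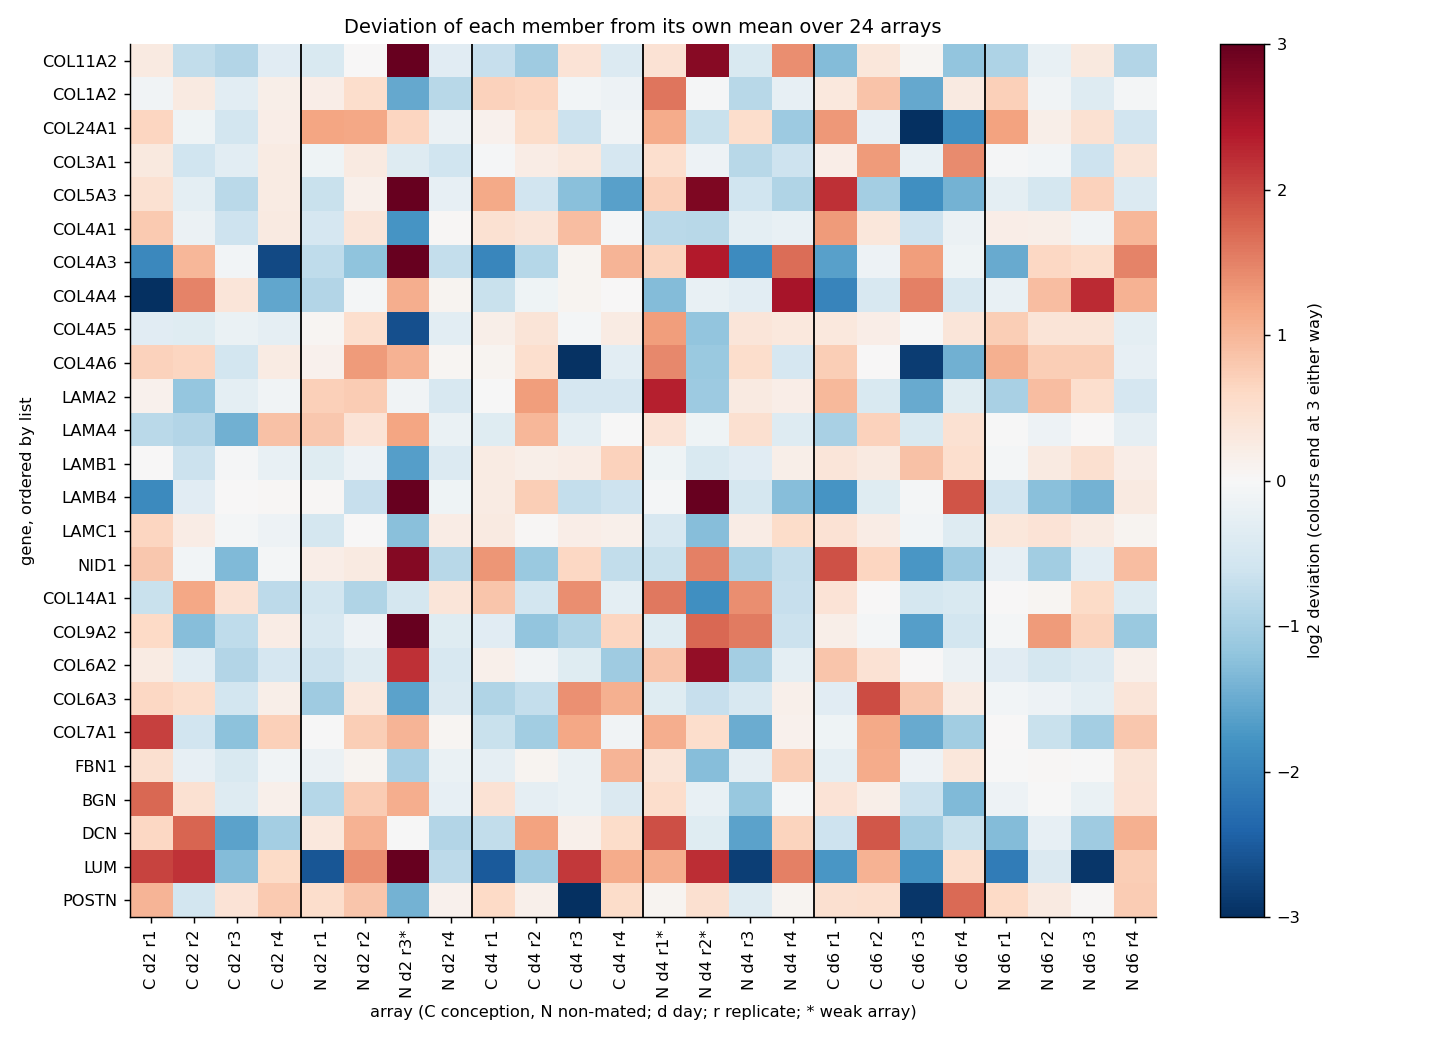
Deviation of 26 of the 27 genes (rows, grouped by list) from their own means on each of the 24 arrays (columns, conception left of non-mated for each day), in log2 units, red above and blue below. Asterisks mark the weak arrays, and the dim genes COL11A2 and COL5A3 are dark red on both weakest ones, and conception day 6 replicate 3 is blue for COL24A1, COL4A6 and POSTN.

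The small leucine-rich proteoglycans, which bind fibrils and tune their width, varied widely between arrays. LUM had the largest residual SD of the 27 genes, 2.00, and 99.0% of all features had a lower one. LUM was well above background on 13 of 24 arrays, and its conception minus non-mated differences were 0.48, -0.59 and 0.67, or 1.53, 0.57 and 0.67 without the weak arrays. DCN, its neighbour on chromosome 11, had -0.18, 0.13 and 0.28, and BGN had 0.29, 0.10 and -0.36. At days 2 and 4 DCN had -0.22 and 0.76, and BGN 0.60 and 0.48, without the weak arrays. FBN1, the fibrillin that carries elastic fibres, had 0.24, 0.27 and 0.16, with SE of 0.42, and 0.02 and -0.07 at days 2 and 4 without the weak arrays. COL14A1 and COL9A2, which sit on fibrils, had 0.24 and -1.02 at day 4, or 0 to 2 decimals and -0.91 without the weak arrays. COL7A1, of the anchoring fibrils under epithelium, had -0.21, -0.22 and -0.17, or -0.02, 0.51 and -0.17 without the weak arrays, with its highest stronger array, at 3.21, on conception day 2 replicate 1. On conception day 2 the summed signal of 7 smooth muscle markers (of 9 listed) ran between 9.64 and 340.0 times the 75th percentile, against 12.2 to 41.8 on non-mated day 2. Its part in these levels was not tested.

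Counted by direction, 4 of the 27 genes lay above 0 for conception minus non-mated on all 3 days, COL3A1, COL6A3, FBN1 and LAMB1, which is 14.8%, beside 14.7% of all features. Below 0 on all 3 days lay 8 of 27, or 29.6%, beside 19.4% of all features. Of the first, COL3A1, COL6A3 and LAMB1 kept their direction on all 3 days without the weak arrays and under quantile, median and normexp processing. With the slide as a block, of the 4 only LAMB1 did. The 8 were COL11A2, COL4A3, COL4A4, COL4A6, COL5A3, COL7A1, COL9A2 and LAMA2, and none of them kept its direction on all 3 days under all 5 of these settings. Without the weak arrays COL5A3, COL7A1 and COL9A2 no longer did, and 7 of the 27 genes lay below 0 on all 3 days, beside 13.8% of all features. After quantile, median and normexp processing 4 of 27 did each time, beside 4.59%, 7.76% and 7.05%. Above 0 on all 3 days then lay 8, 5 and 6 of 27, beside 23.6%, 28.2% and 17.0% of all features. In the mean of days the median of all features rose from -0.06 to 0.28, 0.28 and 0.02. Such a rise favours staying above 0 and works against staying below 0. Directions kept or lost under these settings therefore cannot be told apart from the shift of all features.

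Between days, no gene passed the test in either cycle type. For conception day 6 minus day 2, the fibrillar median was -0.09 and the basement membrane median 0.23, beside -0.03 over all features. Above 0 lay 9 of 12 basement membrane genes (75.0%), beside 48.1% of all features. With the genes named by description or RefSeq it was 10 of 18, and the median was 0.05. The highest were COL4A3, at 0.77, and LAMB1, and the lowest was COL4A6, at -1.14. Among fibrillar genes COL3A1 was highest at 0.76, followed by COL1A2 at -0.03, and COL24A1 was lowest at -1.04, followed by COL5A3 at -0.42. COL3A1 and COL24A1 were 1.06 and -0.30 without conception day 6 replicate 3. In the same comparison the median of 6 epithelial markers (of 10 listed) was -0.86, with 4 of 6 below 0 and the lowest KRT19 at -1.49 (limma unadjusted p = 0.0446, adjusted p = 0.997) and CLDN4 at -1.30. Their summed signal ran between 35.4 and 71.8 times the 75th percentile on conception day 6, against 49.7 to 85.5 on conception day 2. Their part in the matrix levels was not tested.

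For non-mated day 6 minus day 2 the fibrillar median was -0.39 and the basement membrane median -0.14, beside -0.19 over all features. These were 0.06 and 0.16 without the weak arrays, beside 0.01. COL4A4 had the highest value at 0.94, then COL4A5 at 0.91, and LAMB4 and NID1 had the lowest at -1.42 and -0.76. COL4A4 was at 1.28, COL4A5 at 0.23, LAMB4 at -0.48 and NID1 at -0.04 without the weak arrays. Of the fibrillar genes COL1A2 had 0.45, COL3A1 0.12, COL11A2 -1.21 and COL5A3 -0.98. COL1A2 was at 0.07, COL3A1 at 0.06, COL11A2 at -0.17 and COL5A3 at 0.11 without the weak arrays.

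Step by step in conception cycles, day 4 minus day 2 gave a basement membrane median of 0.44, with LAMA4 at 0.64 and LAMB1 at 0.56 highest, and COL4A6 at -0.94 lowest. The fibrillar median was -0.01, with COL1A2 at 0.27 and COL3A1 at 0.09 highest, and COL5A3 at -0.47 and COL24A1 at -0.06 lowest. Day 6 minus day 4 gave medians of -0.13 for basement membrane and -0.08 for fibrillar genes. There COL3A1 at 0.67 and COL5A3 at 0.05 led the fibrillar genes, and COL24A1 at -0.98 and COL1A2 at -0.30 closed them. COL4A3 at 0.26 and LAMB1 at 0.17 were the highest basement membrane genes, and LAMA2 at -0.39 was among the 2 lowest.

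**Figure D5:**
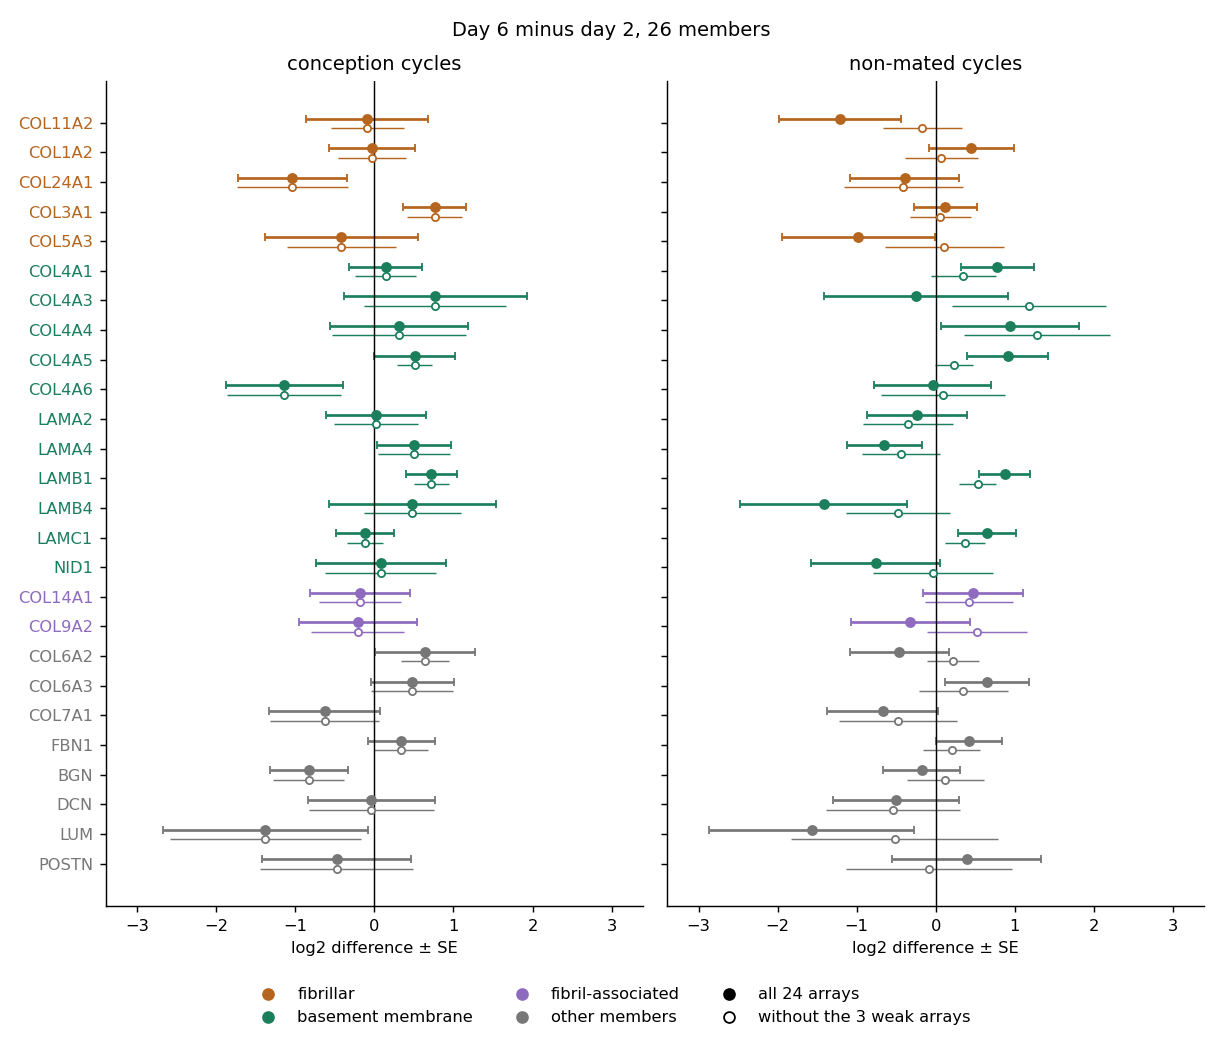
Day 6 minus day 2 log2 difference of 26 of the 27 genes (horizontal axis) in conception cycles (left) and non-mated cycles (right), with genes down the page and bars of ± 1 SE from limma. Filled points use all 24 arrays and open points leave out the 3 weak arrays. LAMB1 lay above 0 in both panels, at 0.72 and 0.87.

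The interaction asked whether the change between day 2 and day 6 differed between cycle types. It was highest for LAMB4 at 1.90 ± 1.50 (SE) and LAMA4 at 1.15 ± 0.66 (SE), and lowest for COL4A6 at -1.10 and the probe named LAMC1 at -0.78. Among fibrillar genes it was highest for COL11A2 at 1.13 and COL3A1 at 0.64, and lowest for COL24A1 at -0.65 and COL1A2 at -0.48. Without the weak arrays LAMB4 was at 0.96, LAMA4 at 0.94, COL4A6 at -1.24 and the probe named LAMC1 at -0.49. The fibrillar values were then 0.09 for COL11A2, 0.70 for COL3A1, -0.63 for COL24A1 and -0.11 for COL1A2. The smallest adjusted p was 0.9 (limma, n = 4 in each of the 4 groups). For LAMB1 it was -0.15, smaller than its SE of 0.45, and 0.19 without the weak arrays, and a difference between cycle types was not shown. All 6 epithelial markers (of 10 listed) lay below 0 for the interaction, where 54.1% of all features lay above 0. Their median was -0.83, beside 0.09 over all features, or -0.47 without the weak arrays, beside -0.02. The lowest were KRT19 at -2.06 and CLDN4 at -1.99 (limma unadjusted p = 0.0489 and 0.0414, adjusted p = 0.9 for both), or -1.14 and -1.59 without the weak arrays. Those 2 of 6 reached an unadjusted p under 0.05 (limma), beside 2.1% of all features. Without the weak arrays 0 of 6 did, beside 4.26%. The part of these markers in the matrix levels was not tested.

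Genes named outside the gene name field, through the RefSeq gene table or the probe's description, were read beside the 32. There were 19 of them, and 15 passed the filter. None passed an adjusted p of 0.05, and at an unadjusted p under 0.05 limma gave LAMC3 at day 4 and in the mean of days, and COL16A1 for non-mated day 6 minus day 2. Each was 1 of 15 (6.67%), beside 5.88%, 6.76% and 3.27% of all features in those comparisons. COL16A1 had 0.91 for non-mated day 6 minus day 2, and 0.50 without the weak arrays. LAMC3, a gamma chain, was well above background on 0 conception day 4 arrays and 2 non-mated ones. Its measured means that day were -4.70 in conception cycles and -2.99 in non-mated cycles, or -3.65 in non-mated cycles without the weak arrays. FN1, encoding fibronectin, had conception levels of 3.38, 3.48, 2.28 and 3.24 on day 4, against non-mated levels of 3.89, 3.60, 3.35 and 3.37. TNC, encoding tenascin C, had the highest of the 15 differences at day 6, 1.27, with a residual SD of 1.73, larger than in 97.1% of all features. COL12A1 had the highest at day 2, 1.11, or 0.83 without the weak arrays. HSPG2, the perlecan core protein, had -0.02, -0.47 and -0.14 at days 2, 4 and 6, and 1.01 and 0.32 at days 2 and 4 without the weak arrays. COL15A1 and COL5A1 had -0.69 and 0.20 at day 6.

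Enzymes that make collagen and receptors that bind it were read as a list of 41 genes. Of these, 35 were found by gene name, RefSeq or description, and 29 passed the filter. None of the 29 passed an adjusted p of 0.05 in any comparison. At day 4 an unadjusted p under 0.05 (limma) was reached by 2 of the 29 (6.9%), beside 5.88% of all features. They were PCOLCE2, which helps to trim the C-terminal propeptide, at 1.60 ± 0.63 (SE) and PPIB, a prolyl isomerase of collagen folding, at 0.59 ± 0.27 (SE). PPIB alone reached it in the mean of days, at 0.33, which is 3.45% of the 29, beside 6.76% of all features. At day 4 PCOLCE2 was at 1.67 and PPIB at 0.36 without the weak arrays, and in the mean of days PPIB was at 0.22. The lowest at day 4 was ITGA11, a collagen-binding integrin chain, at -1.43, and at 0.89 without the weak arrays. At day 2 PLOD1, a lysyl hydroxylase, was highest at 1.04 and LOXL3, a crosslinking oxidase, lowest at -1.49, or 0.41 and 0.02 without the weak arrays. At day 6 ADAMTS14, which trims the N-terminal propeptide, was highest at 0.98 and CTGF lowest at -0.92, and in the mean of days DDR1, a collagen receptor kinase, was highest at 0.69 and ITGA10 lowest at -0.89, or 0.24 and -0.26 without the weak arrays.

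Between days in conception cycles the ends of this list were PCOLCE2 at 1.09 and PLOD1 at -0.92 for day 4 minus day 2, and ADAMTS14 at 0.81 and ADAMTS3 at -0.73 for day 6 minus day 4. For conception day 6 minus day 2 they were ADAMTS14 at 1.30 and ITGA10 at -1.16. For non-mated day 6 minus day 2 they were LOXL2 at 1.23 and LOXL3 at -1.05, or 0.87 and 0.46 without the weak arrays. For the interaction they were ADAMTS14 at 2.14 and PLOD1 at -1.76 (limma unadjusted p = 0.0261, adjusted p = 0.9), or 1.18 and -1.13 without the weak arrays. The median of the 29 was 0.12 at day 2, 0.10 at day 4 and -0.07 at day 6 for conception minus non-mated, beside -0.15, -0.02 and 0 to 2 decimals over all features. It was 0.20 at day 2 and 0.11 at day 4 without the weak arrays, beside 0.01 and 0.01.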

How the data were processed

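The authors' deposited scanner files hold a background-corrected intensity per spot, made with Agilent Feature Extraction, version 9.5.3.1 per the file headers and 10.7.3.1 per the submitters' processing notes. Probe positions are on rheMac2, per the file headers. RNA was extracted with Trizol and 200 ng was labelled with Cy3, per the labels' protocols. A log2 value table, deposited by the authors with its centring unstated, served as an alternative only, and its differences between arrays correlated at 0.999 to 1 with those of the scanner values. Titles of 8 non-mated samples name day 2, and their other labels, used here, give day 4 or 6.

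Control spots were left out, as were outlier spots unless all spots of a probe were flagged. The remaining spots of each probe, at most 2, were averaged. The log2 intensity minus the array's 75th percentile was the level. Probes had to exceed background (Agilent's flag) on 3 or 4 arrays of some group, which left 12780 of 20217, and each gene name took its probe with the highest mean (12053 features). limma 3.58.1 in R 4.3.3 fitted 6 group means with 18 residual degrees of freedom, and p-values were adjusted by Benjamini-Hochberg over all features. The number of arrays limits the precision: on simulated data for conception minus non-mated at day 6, limma called 2 of 50 genes changed by 1 on the log2 scale, 21 of 50 changed by 2, 40 of 50 changed by 3 and 45 of 50 changed by 4.

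Each scan day held 2 arrays of every group, and the files number 9 slides. On scan day 1 each slide held arrays of a single cycle type. Conception minus non-mated differences within scan day 1 therefore cannot be told apart from differences between slides. The saturation limit of the scan also differed. Several conception arrays had the lower limit, and of the non-mated arrays only day 2 replicate 2 did. Alternatives changed the scaling, background correction, filter, arrays, blocks and probe choice. The genes and lists were chosen with earlier results of these data known. Named were genes past the threshold, the 2 highest and 2 lowest of each list per comparison, a fixed set of main matrix genes and, for the collagen-processing list, the highest and lowest. COL1A1, COL6A1, COL18A1, LAMA5, NID2, SPARC, ELN and VCAN were not analysed here. Another tested gene is in the counts and medians, and its own results are not reported here. RefSeq gene names served for names and neighbours only. Python 3.11.15 with pandas 2.3.3 and matplotlib 3.10.9 made the tables and figures.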

Additional observations from a re-analysis of the deposited data

Results flagged for a closer look

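An array was looked at again when its gap to the nearest array of its group of 4, divided by the group's range, exceeded 0.829, which chance gives in about 1 of 20 groups. Of 180 such groups (27 genes and 3 list means, in 6 groups each), 11 had one (6.11%), and 7 of the 11 lay on weak arrays.

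Non-mated day 2 replicate 3, the weakest array, held 6. It was highest for COL11A2 (-0.01, next -3.91), COL4A3 (0.87, next -4.67), COL5A3 (-0.26, next -4.23), COL9A2 (-0.26, next -3.44) and COL6A2 (6.99, next 4.41), and lowest for LAMB1 (1.34, next 2.60). Non-mated day 4 replicate 2, also weak, was highest for NID1 (-1.50, next -3.66).

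The other 4 lay on stronger arrays. POSTN was lowest on conception day 4 replicate 3 (-0.77, next 4.08). DCN was highest on conception day 6 replicate 2 (1.61, next -0.86). LAMB1 was highest on conception day 4 replicate 4 (3.68, next 3.24), and FBN1 was highest on non-mated day 6 replicate 4 (1.11, next 0.76). The cause was not tested for any of them.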

How the results depend on the processing

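Under 14 other settings and 24 fits that each left out 1 array, none of 342 counts of genes past the threshold differed from 0. The smallest adjusted p was 0.0598 (limma with array weights, conception day 6 minus day 2), and without the weak arrays that comparison called 207 of 12053 features (1.72%) and 0 of the 27 genes, smallest adjusted p 0.103. Over the alternatives that kept all arrays or left out the weak ones, 275 of 3321 differences changed sign, from 0 with the authors' value table to 59 with array weights, and 262 of 5832 when 1 array was left out. LAMA4 at day 2 was 0.11 after quantile normalization, beside a median of 0.50 over all features.

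The fibrillar minus basement membrane median moved by over the within-group SD of 0.54 in these cases. In the mean of days it was -0.39, and 0.22 with the genes named by description or RefSeq. For conception day 6 minus day 4 it was 0.05, and -0.51 with array weights. For the interaction it was 0.80, and -0.82 after quantile normalization, -0.05 with normexp and -0.09 with only features well above background in every group. It was -0.06 without the weak arrays, 0.07 with array weights, 0.17 with the slide as a block and -0.01 with the genes named by description or RefSeq. The cause was not tested. Leaving out 1 array at a time, it ran from -0.64 to 0.16 at day 2, -0.38 to 0.23 at day 4, -0.12 to 0.09 at day 6, and -0.56 to -0.26 in the mean of days. For the conception steps it ran from -0.55 to -0.10 (day 4 minus 2), -0.49 to 0.20 (day 6 minus 4) and -0.49 to -0.20 (day 6 minus 2). For the non-mated days it ran from -0.91, without non-mated day 6 replicate 1, to -0.09. For the interaction it ran from -0.25, without conception day 6 replicate 1, to 1.23, and it was -0.06 without non-mated day 2 replicate 3.

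The labels do not say that replicate numbers pair the arrays, and the numbers were not taken to. Of 60 same-numbered pairs, 20 had deviations correlated above 0.1 (range -0.682 to 0.64), against 49 of 180 pairs with different numbers. On average 11 of 24 arrays correlated best with their own number among the 4, where a random order would give 6. The conception replicate 3 arrays shared a slide, as did the conception replicate 4 arrays. A pairing by number therefore cannot be told apart from slide and scan day. With the replicate number as a block the differences were those of the fit without it, 0 genes passed, and the smallest adjusted p was 0.669. Quantile normalization moved the median of all features at day 2 from -0.15 to 0.50 and at day 4 from -0.02 to 0.40, and median scaling moved them to 0.50 and 0.38. Signal near background limits the dim genes: 9 of the 27 were not well above background on 3 of 4 arrays of every group.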
